A study of Mus musculus with 6 samples.

Results

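A set of 10 Notch pathway genes was followed in kidneys that lack Pkd2 in their tubules, with and without the microRNA miR-214. They were taken by gene symbol from the authors' deposited table of 20138 genes, and all 10 were present, each on 1 line: the receptors Notch1, Notch2, Notch3 and Notch4, the ligands Jag1, Jag2, Dll1 and Dll4, and the transcriptional targets Hes1 and Hey1. The mice labelled Pkhd1Cre; Pkd2 F/F; miR-214null, called Pkd2-miR-214-KO here, were compared with mice labelled Pkhd1Cre; Pkd2 F/F, called Pkd2-KO, with 3 animals per genotype at postnatal day 35. Both genotypes therefore carry 2 floxed Pkd2 alleles and a Cre driven by the Pkhd1 promoter, which is active mainly in tubule epithelium, and no kidneys with intact Pkd2 were part of the comparison. RNA came from whole kidneys, so that a gene read in tubules, vessels and stroma is a sum over all of them. Fewer cells of a type and less RNA per cell cannot be told apart in such samples.

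Notch receptors are single-pass membrane proteins that are activated by Jagged or Delta-like ligands on a neighbouring cell. Ligand binding exposes the receptor to an ADAM protease and then to gamma-secretase, which frees the intracellular domain. That domain joins the DNA-binding protein RBPJ in the nucleus and switches on targets such as the Hes and Hey repressors. In the mouse kidney Notch2 is required for formation of the proximal parts of the nephron, Notch signalling in the collecting duct favours principal over intercalated cells, and Notch3 and Notch4 are best known from vessel walls, Notch3 in smooth muscle cells and pericytes and Notch4 in endothelium.

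No Notch gene passed the threshold between the genotypes. At an adjusted p under 0.05 by the edgeR likelihood ratio test in the authors' deposited table, 0 of the 10 genes were called, against 25 of all 20138 genes (0.124%). Notch4 was the 1 member with an unadjusted p under 0.05, and 4.82% of all genes had one. The 4 receptors and 4 ligands all had log2 folds at or below 0, from -0.41 to -0.0003, while Hes1 and Hey1 stood at 0.40 and 0.11, all in the authors' deposited table. Over all genes, 48.2% had a fold below 0 and the median was 0.00, whereas the median over the 10 Notch genes was -0.16. A log2 fold above 0 means more RNA in Pkd2-miR-214-KO than in Pkd2-KO, a direction read from the negative fold of Mir214 itself. Errors are an approximate standard error (SE), which follows from the fold and its likelihood ratio (absolute fold over root of the ratio), and intervals are the approximate 95% intervals that this SE gives.

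**Figure D1:**
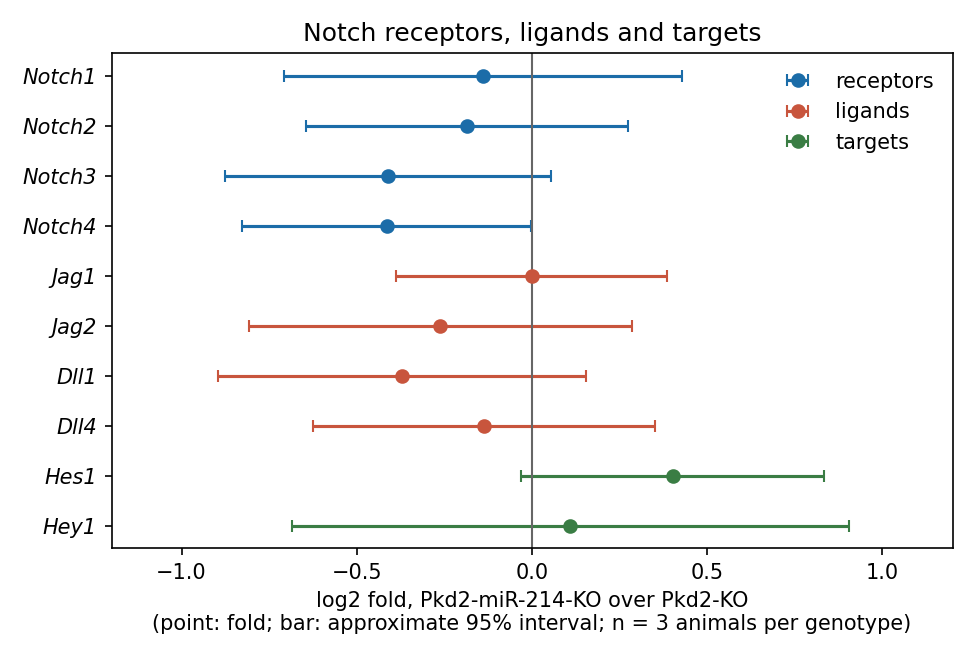
Log2 fold of each Notch gene between Pkd2-miR-214-KO and Pkd2-KO kidneys, coloured by role, with approximate 95% intervals as horizontal bars. The points of the receptors and ligands lie at or left of 0 and those of Hes1 and Hey1 right of it, and the interval of Notch4 is the 1 that does not reach 0.

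Expression values per animal were not analysed here, so the level of each gene is given per genotype, as implied by the mean CPM, the count scaled to library size, and the fold in the authors' deposited table and without a spread. Averaged over both genotypes and divided by the length of the longest protein-coding transcript, Hes1 stood highest with 28.1 CPM per kb. Jag1 followed with 11.7 and Notch2 with 10.1 CPM per kb. Notch3 had 7.49, Notch1 7.28, Notch4 5.34, Dll4 4.70, Dll1 4.19 and Jag2 3.03 CPM per kb on the same scale. Hey1 was lowest with 1.12 CPM per kb. Jag1 was thus the most abundant ligand and Notch2 the most abundant receptor in these cystic kidneys by this scale. The order of the close pair Notch3 and Notch1 was not the same in both genotypes: in Pkd2-miR-214-KO Notch3 had 6.43 and Notch1 6.93 CPM per kb, and in Pkd2-KO Notch3 had 8.55 and Notch1 7.63 CPM per kb. With no spread per animal, whether neighbours in this order differ was not tested.

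**Figure D2:**
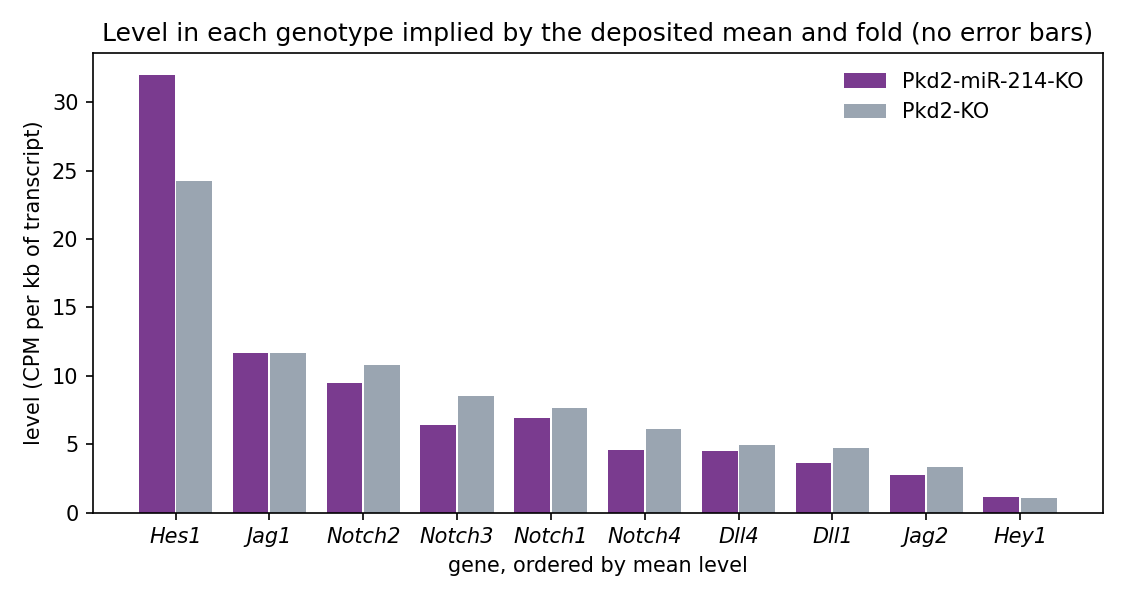
Level of each Notch gene in CPM per kb of transcript (vertical axis, from 0), with Pkd2-miR-214-KO as the left and Pkd2-KO as the right bar of each pair, ordered by mean level. Hes1 has the tallest pair of bars, with 32.0 CPM per kb in Pkd2-miR-214-KO and 24.2 in Pkd2-KO, and Hey1 the shortest.

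Among the receptors, Notch4 had the smallest p-value. Its level was 30.2 CPM in Pkd2-miR-214-KO kidneys and 40.2 CPM in Pkd2-KO kidneys, a log2 fold of -0.41 ± 0.21 (SE) with an unadjusted p of 0.0490 and an adjusted p of 1 by edgeR in the authors' deposited table. On the linear scale the ratio was 0.751, with an interval of 0.564 to 0.999. It ranked 949 of 20138 by p-value, and 1.71% of all genes had an unadjusted p under 0.05 with a lower level in Pkd2-miR-214-KO. The gene spans mm10 chromosome 17 from 34564268 to 34588503 on the plus strand.

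Notch3 had nearly the same fold as Notch4. It stood at 51.5 CPM in Pkd2-miR-214-KO and 68.5 CPM in Pkd2-KO, with a log2 fold of -0.41 ± 0.24 (unadjusted p = 0.0840, adjusted p = 1, edgeR) in the authors' deposited table. The interval of -0.88 to 0.06 reached 0. Notch3 lies on chromosome 17 as well, from 32120820 to 32166852 on the minus strand.

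Notch2 and Notch1 had folds nearer to 0. Notch2 reached 99.5 CPM in Pkd2-miR-214-KO and 113 CPM in Pkd2-KO, with a log2 fold of -0.19 ± 0.23 and an interval of -0.64 to 0.27 in the authors' deposited table. Notch1 had 65.8 CPM in Pkd2-miR-214-KO and 72.4 CPM in Pkd2-KO, and its log2 fold was -0.14 ± 0.29 with an interval of -0.71 to 0.43 in the authors' deposited table. Both intervals include 0 and also the fold of Notch4, and whether the receptors differ from each other was not tested. Notch1 spans chromosome 2 from 26457903 to 26516663 on the minus strand, and Notch2 chromosome 3 from 98013527 to 98150361 on the plus strand.

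Because the gene lost in Pkd2-miR-214-KO is a microRNA, the 3′ untranslated region (UTR) of each Notch gene was searched for the 7-base sites that pair with the seed of miR-214, bases 2 to 8 of the mature strand. The hairpin yields 2 mature strands, shown here 5′ to 3′ from RefSeq (GRCm38.p6, chromosome 1, plus strand) with the seed in capitals. The longest annotated 3′ UTR of each gene was taken from GENCODE M21. A match to the miR-214-3p seed was present in Jag2 and Dll1, 2 of the 10 members, against 21.3% of the 16888 protein-coding genes with a 3′ UTR. A match to the miR-214-5p seed was present in Jag1, 1 of the 10, against 9.40% of those genes. The sites are printed below the mature strands as they stand in the transcript, written as DNA on the minus strand of mm10, with the 7 matching bases in capitals.
mmu-miR-214-3p: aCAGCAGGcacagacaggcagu
mmu-miR-214-5p: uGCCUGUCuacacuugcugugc
Jag2 site for miR-214-3p, chr12:112908087-112908116: ggctagcccctccagCCTGCTGtccttgct
Dll1 site for miR-214-3p, chr17:15367816-15367845: gctgccgctggactgCCTGCTGgttgttcc
Jag1 site for miR-214-5p, chr2:137081975-137082004: ttagacttgaaaagaGACAGGCaggcgatc

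The Jag2 match starts at base 788 of a UTR of 1070 bases, the Dll1 match at base 200 of 676 and the Jag1 match at base 1035 of 1568. Of the 3 matches the Jag1 one is followed by an A opposite base 1 of the microRNA, and those of Jag2 and Dll1 are not. All 3 genes are ligands, and no receptor or target held a 7-base match in its longest 3′ UTR. A match describes the sequence and does not show that the RNA is bound.

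Both ligands with a miR-214-3p match had log2 folds below 0 that did not pass the test. Dll1, a Delta-like ligand used in nephron formation in the mouse, stood at 13.1 CPM in Pkd2-miR-214-KO and 16.9 CPM in Pkd2-KO, with a log2 fold of -0.37 ± 0.27 (unadjusted p = 0.166, adjusted p = 1, edgeR) in the authors' deposited table. Its interval ran from -0.90 to 0.15. Jag2 had 14.1 CPM in Pkd2-miR-214-KO and 16.8 CPM in Pkd2-KO, and its log2 fold was -0.26 ± 0.28 with an interval of -0.81 to 0.28 in the authors' deposited table. Both intervals include 0, and the upper limits correspond to ratios of 1.11 for Dll1 and 1.22 for Jag2. Dll1 spans chromosome 17 from 15367354 to 15376872 and Jag2 chromosome 12 from 112907819 to 112929776, both on the minus strand.

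Jag1, the ligand with the miR-214-5p match, had the fold closest to 0 of the 10 genes. It measured 65.6 CPM in Pkd2-miR-214-KO and 65.6 CPM in Pkd2-KO, with a fold of -0.0003 on the log2 scale and an interval of -0.39 to 0.39 in the authors' deposited table. On the linear scale that interval runs from a ratio of 0.765 to 1.31. To pass the threshold at this SE, Jag1 would have needed a log2 fold of 0.79 in either direction. Both rest on an SE that is poor for a fold this near 0. Jag1 spans chromosome 2 from 137081456 to 137116644 on the minus strand.

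Dll4, the Delta-like ligand of endothelial cells, had no 7-base match to either strand. It stood at 16.8 CPM in Pkd2-miR-214-KO and 18.4 CPM in Pkd2-KO, with a log2 fold of -0.14 ± 0.25 and an interval of -0.63 to 0.35 in the authors' deposited table. Dll4 spans chromosome 2 from 119325784 to 119335962, plus strand, and is overlapped on the opposite strand by Gm14207, a transcript for which the authors' deposited table gives a log2 fold of 0.46 at a mean log2 CPM of 0.74. Whether the counting used strand is not stated, and without it reads of such an antisense pair cannot be told apart. Annotated transcripts on the opposite strand also overlap Notch1, Notch3, Notch4 and Dll1, and none of these has a line of its own in the table.

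Of the targets, Hes1 had the second smallest p-value among the Notch genes, with the opposite sign to Notch4. Hes1 encodes a basic helix-loop-helix repressor that RBPJ and Notch induce directly, and that other signals can induce as well. It stood at 47.0 CPM in Pkd2-miR-214-KO and 35.6 CPM in Pkd2-KO, with a log2 fold of 0.40 ± 0.22 (unadjusted p = 0.0697, adjusted p = 1, edgeR) in the authors' deposited table. The ratio was 1.32, with an interval of 0.978 to 1.78. Hes1 spans chromosome 16 from 30064384 to 30067796 on the plus strand, and its longest 3′ UTR of 368 bases is the shortest among the 10 genes.

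Hey1, a related repressor of vessels and heart, was scarce in these kidneys. It reached 2.82 CPM in Pkd2-miR-214-KO and 2.61 CPM in Pkd2-KO, and its log2 fold was 0.11 ± 0.41 with an interval of -0.69 to 0.90 in the authors' deposited table. The SE of Hey1 was the largest of the 10, at the lowest level. Hey1 spans chromosome 3 from 8663359 to 8667256 on the minus strand.

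The precision of the comparison can be read from the fold that each gene would have needed. The called gene with the smallest likelihood ratio had a value of 16.1, and at its own SE a Notch gene would have reached it with a log2 fold of 0.79 in either direction for Jag1 and 1.63 for Hey1, the least and the most demanding of the 10. For Notch4 that fold was 0.84 and for Hes1 0.89. In the authors' deposited table the 10 measured folds span -0.41 to 0.40. Among the 10944 genes with a mean level in the range of the Notch genes, 3.97% had an unadjusted p under 0.05 and 51.1% had a fold below 0.

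**Figure D3:**
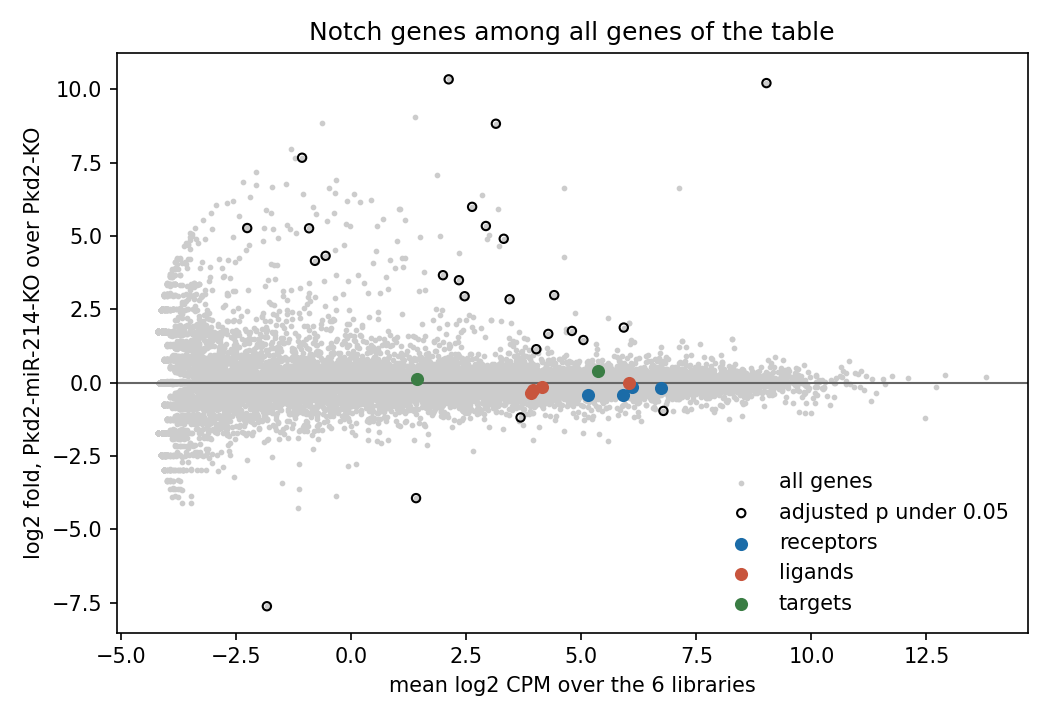
Log2 fold against mean log2 CPM for every gene of the table (grey), with genes called at an adjusted p under 0.05 circled and the Notch genes coloured by role. The 10 coloured points lie inside the grey band between -0.41 and 0.40, and none is circled.

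The rest of the pathway was examined through a list of 90 other genes, grouped by their step. At an adjusted p under 0.05 by edgeR in the authors' deposited table, 0 of the 90 were called in either direction. At an unadjusted p under 0.05 there were 3, of which 2 had more and 1 had less RNA in Pkd2-miR-214-KO, where 3.10% of all genes were higher and 1.71% lower by the same rule. Of the 90 folds 46 were above and 44 below 0, with a median of 0.01. The list as a whole thus lay on both sides of 0, as did all genes.

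At the cell surface, 6 of the 7 genes for fringe and other glycosyltransferases, which add the sugars that tune ligand binding, had folds below 0, with a median log2 fold of -0.18. Lfng, which encodes lunatic fringe, led them by p-value at -0.43 ± 0.28 on the log2 scale in the authors' deposited table. Among the 10 further receptors, ligands and extracellular modulators, 7 folds were negative. Low means stood behind the negative folds of Dll3 and Dlk2, at 0.0787 and 0.675 CPM. The same held for the positive folds of Dner and Cntn6, at 0.240 and 0.309 CPM. Mfap2, which encodes a microfibril glycoprotein, had the smallest p-value of all 90 genes, with 8.40 CPM in Pkd2-miR-214-KO against 17.8 CPM in Pkd2-KO. Its log2 fold was -1.08 ± 0.34 (adjusted p = 0.259, edgeR) in the authors' deposited table. The ubiquitin ligases and adaptors of ligand endocytosis had 4 negative and 3 positive folds, and Mib2, one of the ligases, had the smallest p-value of them at -0.26 ± 0.22 in the authors' deposited table.

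Genes of receptor cleavage and of the nuclear complex lay close to 0. The 10 protease and gamma-secretase genes had a median log2 fold of 0.03, with 6 positive. The gamma-secretase subunit gene Aph1b had 0.46 ± 0.22 (unadjusted p = 0.0369, adjusted p = 0.945, edgeR) in the authors' deposited table, and the similar gene Aph1c 0.38 ± 0.23. Both values are uncertain because the paralogs are nearly identical and their reads may be shared. The RBPJ complex and its coactivators had a median of 0.02. Rbpj itself had a log2 fold of 0.12 with an interval of -0.25 to 0.50 in the authors' deposited table, and the acetyltransferase gene Kat2a, with the smallest p-value of that list, -0.24 ± 0.21. Corepressors had 10 of 15 folds below 0 and a median of -0.04. Cir1, a corepressor that binds RBPJ, led them by p-value with 0.28 ± 0.22 in the authors' deposited table.

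In the remaining lists more folds were positive than negative. Of the 13 genes of inhibition and turnover, 9 had positive folds, with a median of 0.14, and Cul1, the scaffold of the ubiquitin ligase that uses Fbxw7, had the smallest p-value with 0.20 ± 0.20 in the authors' deposited table. Of the 18 other Hes, Hey and target genes, 14 had positive folds, with a median of 0.08. Bhlhe40, a repressor gene of the same helix-loop-helix class that also responds to hypoxia and the clock, had 0.79 ± 0.35 (unadjusted p = 0.0228, adjusted p = 0.816, edgeR) in the authors' deposited table. The direct targets Nrarp, Hey2 and Heyl had log2 folds of 0.03 ± 0.30, 0.16 ± 0.44 and -0.29 ± 0.28 in the authors' deposited table, all with intervals that include 0. Hes5 had a mean of 0.0575 CPM, too low for its fold to be read. Hes2, Hes3, Hes7 and Ptcra, also counted among the positive folds, had low means of 0.641, 0.0707, 0.240 and 0.154 CPM.

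**Figure D4:**
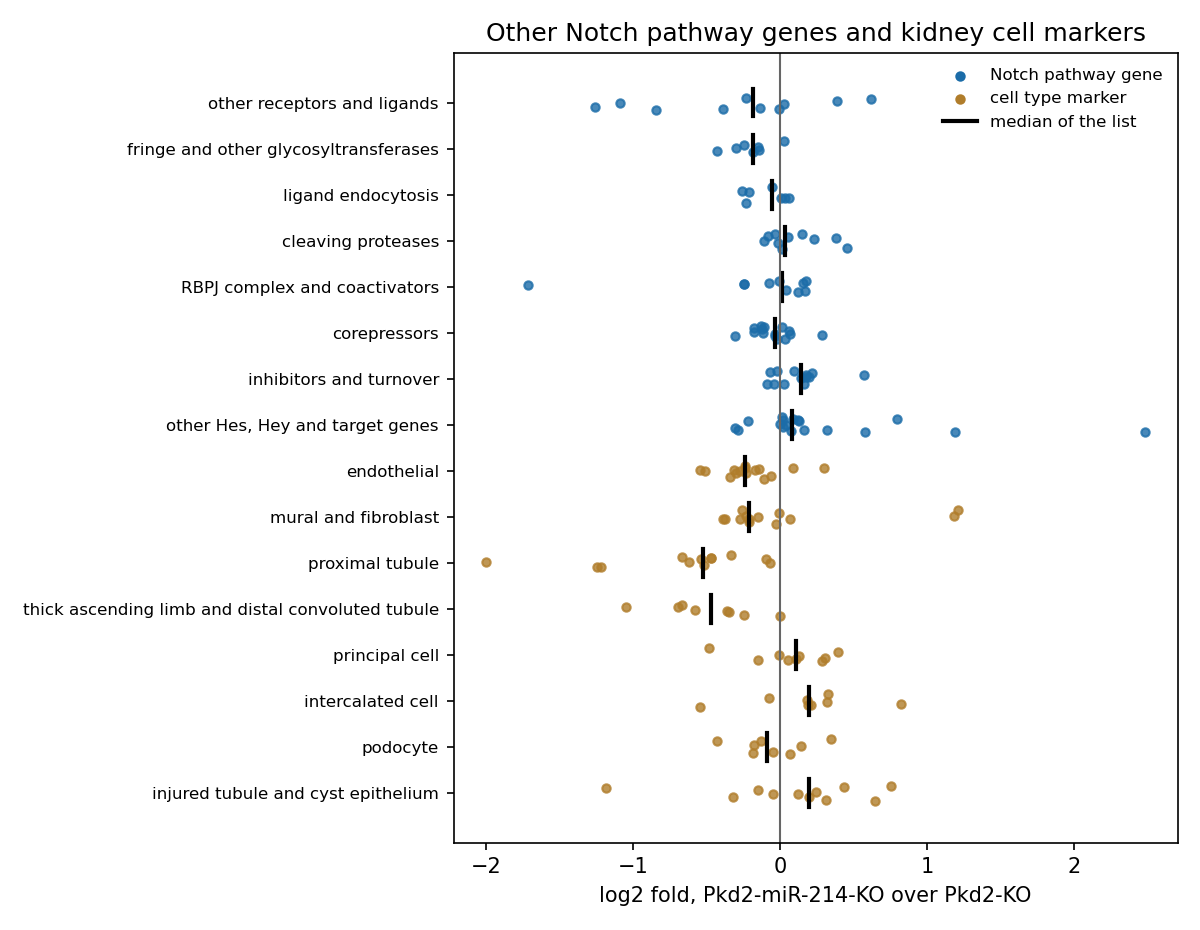
Log2 folds of the other Notch pathway genes by step (blue) and of kidney cell markers (brown), 1 point per gene, with the median of each list as a black bar. The pathway medians lie between -0.18 and 0.14, while the proximal tubule median lies at -0.53.

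Marker genes of the cell types that hold Notch genes are given beside these values, and their part in the Notch folds was not tested. Endothelial markers, from cells in which Notch4 and Dll4 are known to be expressed, had folds below 0 for 13 of 15 genes, a median log2 fold of -0.24, and summed to 1189 CPM in Pkd2-miR-214-KO and 1397 CPM in Pkd2-KO. Tie1, an endothelial receptor kinase, had the smallest p-value of them with -0.54 ± 0.22 (adjusted p = 0.657, edgeR) in the authors' deposited table. Mural cell and fibroblast markers, beside Notch3, had 10 of 13 folds below 0 and a median of -0.21, and summed to 1557 CPM in Pkd2-miR-214-KO and 1485 CPM in Pkd2-KO. Their smallest p-values belonged to positive folds, those of the proteoglycan genes Dcn (1.18 ± 0.31, adjusted p = 0.102, edgeR) and Lum (1.21 ± 0.47) in the authors' deposited table. Dcn alone held 442 CPM of the mural and fibroblast sum in Pkd2-miR-214-KO and 195 CPM of that in Pkd2-KO. In both lists 0 genes were called.

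Among tubule markers, all 12 proximal tubule markers had folds below 0, with a median of -0.53. They summed to 8901 CPM in Pkd2-miR-214-KO against 15752 CPM in Pkd2-KO. Kap alone held 3410 CPM of the sum in Pkd2-miR-214-KO and 7943 CPM of that in Pkd2-KO. Of the 8 markers of the thick ascending limb and distal convoluted tubule, 7 had folds below 0, with a median of -0.47. Principal cell markers had 6 of 9 folds above 0 with a median of 0.11, and intercalated cell markers 6 of 8 above 0 with a median of 0.20. Notch is known to set the balance of these 2 cell types in the collecting duct, and 0 genes were called in either list. Atp6v0d2 led the intercalated list by p-value with 0.82 ± 0.26 (adjusted p = 0.232, edgeR) in the authors' deposited table. Hsd11b2 led the principal cell list by p-value with -0.48 ± 0.31. Whether the balance differed between the genotypes was not tested. Podocyte markers had 5 of 8 folds below 0 and a median of -0.09, and markers of injured tubules and cyst epithelium 7 of 11 above 0 and a median of 0.19, also with 0 genes called. All markers of the proximal tubule, thick ascending limb, principal cells, intercalated cells and podocytes were detected, from 7.40 CPM upward, as the label kidney has it.

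Xist and some genes of other tissues had large folds. Xist, the X-inactivation RNA of females, had a log2 fold of 10.21 ± 2.36 (adjusted p = 0.0168, edgeR), and the liver gene Alb 6.64 ± 2.05 (adjusted p = 0.226), in the authors' deposited table. The Y-linked genes Ddx3y, Eif2s3y, Kdm5d and Uty had log2 folds of -0.23 ± 1.54, -0.14 ± 1.63, -0.66 ± 1.40 and -0.39 ± 1.66 in the authors' deposited table, none of which passed. Ddx3y stood at 52.4 CPM in Pkd2-miR-214-KO and 61.7 CPM in Pkd2-KO, so Y-linked RNA was present in both genotypes. Xist stood at 1040 CPM in Pkd2-miR-214-KO and 0.88 CPM in Pkd2-KO, so its RNA was nearly absent from Pkd2-KO. Of the 6 sex-chromosome genes 1 fold was above 0 and 5 were below, with a median of -0.19. Liver genes had 6 of 7 folds above 0 and summed to 622 CPM in Pkd2-miR-214-KO and 326 CPM in Pkd2-KO. Alb held 274 CPM of the sum in Pkd2-miR-214-KO and 2.76 CPM of that in Pkd2-KO. Adrenal genes had 6 of 6 folds above 0 and summed to 8.23 CPM in Pkd2-miR-214-KO and 3.79 CPM in Pkd2-KO. Star held 6.18 CPM of the sum in Pkd2-miR-214-KO and 3.59 CPM of that in Pkd2-KO. Dbh was called, at a low mean of 0.209 CPM. Leukocyte genes had 5 of 9 folds above 0 and 4 below, with a median of 0.40 and 0 genes called. Their largest log2 folds were those of Ngp (6.63 ± 1.75, at a mean of 0.715 CPM), Ms4a1 (4.23 ± 1.14) and Cd79a (3.77 ± 1.11). The part of liver, adrenal and leukocyte RNA in the Notch folds was not tested. The labels give no sex, Xist differed between the genotypes, and the part of sex in the Notch folds was not tested either. Its part in the marker folds, those of Kap and the other proximal tubule markers included, was also not tested. Mir214 had a log2 fold of -7.62 ± 1.08 and Pkd2 -0.11 ± 0.23 in the authors' deposited table.

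The promoters were searched for the RBPJ motif GTGGGAA on both strands, in RefSeq windows (GRCm38.p6) of 250 bases before to 50 bases after each start. Windows were at hand for 8 of the 10 genes, the receptors and ligands, with 9 windows in all. None of the 9 held the motif, which is present in 6.38% of all 32851 windows, and this says only that these letters are not in these windows.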

How the data were processed

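Whole-kidney RNA of 6 mice, 3 per genotype, was sequenced from stranded total RNA libraries, per the labels' protocols. TopHat2 2.0.12, edgeR and mm10 are named in the submitters' processing notes. One deposited table was used. Per the file headers it holds, for 20138 genes, a log2 fold, a mean log2 CPM, a likelihood ratio (a score on 1 degree of freedom), a p-value and its adjusted form, as the authors computed them. How reads were counted, filtered and normalized, and whether by strand, is not given in the sources used here. The planned tests on counts gave way to the authors' likelihood ratio test, since values per library were not analysed here, and the depth is unknown.

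The adjusted p was checked against the Benjamini-Hochberg adjustment over all genes, with a largest difference of 5.10e-14. Added here were the SE, described with the first result and poor for low counts and for folds near 0, and the level per genotype, for which mean CPM was taken as the average of both. Gene positions, lengths and 3′ UTRs came from GENCODE M21 (mm10), which matched all 10 members. The Notch genes and all lists were chosen with earlier results of these data known. Named were the members, and other pathway genes with an unadjusted p under 0.05 or the smallest p of their list. At most 3 markers per list were named by p. Beyond that rule stood Rbpj, Nrarp, Hey2, Heyl, Hes2, Hes3, Hes5, Hes7, Ptcra, Aph1c, Dll3, Dlk2, Dner, Cntn6, Gm14207, Star, Ddx3y, Eif2s3y and the targeted loci. Scripts were tested on simulated data and ran under Python 3.11.15, pandas 2.3.3, numpy 2.4.6 and scipy 1.17.1.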

Additional observations from a re-analysis of the deposited data

How the results depend on the processing

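With an adjusted p under 0.1, with genes of mean log2 CPM of at least 0 or at least 1 adjusted again, and with the Benjamini-Yekutieli adjustment, 0 of the 10 Notch genes and 0 of the 90 other pathway genes were called. At an unadjusted p under 0.01 the counts were 0 Notch genes and 1 pathway gene, against 1 and 3 at 0.05. With the likelihood ratios rescaled so that their median matched the chi-square distribution, 3 Notch genes (Notch3, Notch4 and Hes1) had a p under 0.05, as did 7.61% of all genes. Recentring on the median of all genes or of genes with a mean log2 CPM of at least 5 left every sign of the 10 folds as it was, with shifts of 0.00 and 0.01. With 6-base in place of 7-base sites, 6 Notch genes held a miR-214-3p site and 4 a miR-214-5p site, against 48.9% and 29.7% of genes. No paired analysis was possible because the labels give no numbers shared between genotypes and the table holds no values per library. For the same reason, leaving out an animal and DESeq2 were not run. Without depth, counting error and the spread between animals could not be separated.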
